A study of Mus musculus with 7 samples.

Results

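The genes described here encode the secreted and membrane-bound matrix proteases of the matrix metalloproteinase (Mmp) and ADAMTS families and their tissue inhibitors (Timp). They were taken by name: every mouse gene symbol of Mmp, Adamts or Timp followed by a number, with the letter of Mmp1a and Mmp1b allowed and the Adamtsl genes left out. Of 46 such genes in the RefSeq gene table, 45 had at least 1 named probe, 59 probes in all, out of 21154 genes and 55681 probes on the array; Mmp27 had no named probe. They comprised 22 Mmp genes, 19 Adamts genes and 4 Timp genes.

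Matrix metalloproteinases are zinc enzymes that cut collagens, gelatin, laminin and many non-matrix proteins, and most are made as inactive proforms. ADAMTS proteases carry thrombospondin repeats that hold them in the matrix, where they cut proteoglycans, trim procollagens or cleave von Willebrand factor. TIMPs bind the active site of these enzymes and block them, and in skin the balance between the proteases and TIMPs is known to bear on wound repair, hair follicle remodelling and fibrosis.

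The study set out to compare dermal sheath cells, the connective tissue cells around the hair follicle, with and without activated β-catenin. Cells came from mouse dorsal skin at postnatal day 15 and were gated for YFP and against CD34, ALP and ITGα8; both groups share the YFP mark and these gates. Of the 7 one-colour arrays, 3 were labelled control (from 1, 1 and 2 mice) and 4 carried the label cΔex3, by which the titles mean β-catenin activation (1, 2, 2 and 1 mice). The Cre driver, the strain and the full alleles of either group are not given in the sources used here. All p-values below measure the spread between these arrays, some of which hold pooled mice.

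The RNA on the arrays went against the labelled cell type. On the control-labelled arrays, hepatocyte genes dominated: Alb, the liver's main plasma protein, had levels of 9.75, 9.92 and 9.54 there against -0.76, 2.30, 1.79 and 2.44 on the cΔex3-labelled arrays. Levels here and below are log2 values relative to the 75th percentile of each array. All 14 tested hepatocyte markers were lower on the cΔex3-labelled arrays (summed linear level 5100 to 6540 on control-labelled arrays against 72 to 253), and all 12 adipocyte markers were higher (53.9 to 139 against 1050 to 2300). Higher on the cΔex3-labelled arrays were also 9 of 10 fibroblast markers, 7 of 8 markers of dermal sheath and smooth muscle and 6 of 6 mesothelial markers. Adipoq, an adipocyte hormone, differed by 11.43, Acta2, the contractile actin of the dermal sheath, by 5.20, and Ctnnb1, which encodes β-catenin, by -0.02. Of the 3 antigens gated against, Cd34 differed by 4.84 (limma adjusted p = 4.09e-05), while Alpl and Itga8 differed by -1.27 and -0.77 and did not pass (limma adjusted p = 0.302 and 0.318). The groups are therefore named by their labels only, no difference is attributed to the allele, and in such bulk RNA fewer cells of a type and less RNA per cell cannot be told apart. Between 69 and 82.7% of probes were well above background on each array, the scaling value (that percentile, in linear signal) ran from 756.1 to 906.7 on control-labelled and from 1348 to 2160 on cΔex3-labelled arrays, and no spot was saturated.

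Across the families, inhibitors and many matrix proteases were higher on the cΔex3-labelled arrays. Testing required a probe well above background on 3 or more of the 7 arrays, which 37 of the 45 genes had. Mmp28 (both probes) and the brighter Adamts16 probe met this through the cΔex3-labelled arrays alone, as did the dimmer probes of Adamts17 and Mmp24. Of other called probes, those of Mmp3, Mmp9 and Adamts4 and the dimmer of Adamts8 met it only with those arrays counted, and were higher there. Those of Adamts13 and Mmp25 and the dimmer of Adamts16 met it only with the control-labelled arrays counted, and were higher there. Counts and medians over the tested genes are therefore descriptions. The calls of these probes are not independent of the filter, and their p-values are given as description only. The counts below include Mmp3, Mmp9, Mmp28, Adamts4 and Adamts16 among the higher genes and Adamts13 and Mmp25 among the lower. Of the 37 genes, 20 were higher (7 Mmp, 9 Adamts, 4 Timp), 5 were lower (2 Mmp, 3 Adamts) and 12 did not pass the threshold, an adjusted p of 0.05 in limma over all tested probes. The difference between the labelled groups was broad: 23.9% of all 18031 named genes tested were called higher and 28.8% lower, and the counts of the 45 genes are to be read against these shares. The median difference was 1.58 over the 37 genes (0.68 for Mmp, 1.20 for Adamts and 3.37 for Timp genes) and -0.08 over all tested genes. A difference of at least 2 on the log2 scale was called higher for 14 of the 37 genes and for 12.4% of all genes. The groups did not overlap, with the cΔex3-labelled arrays higher, for 20 of the 37 genes and for 26.1% of all genes; in the other direction they did not overlap for 7 of the 37 and for 32.6% of all. Replicate spread was somewhat wider for these genes than in general, with a median SD of 0.37 on control-labelled and 0.60 on cΔex3-labelled arrays against 0.23 and 0.40 over all genes.

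**Figure D1:**
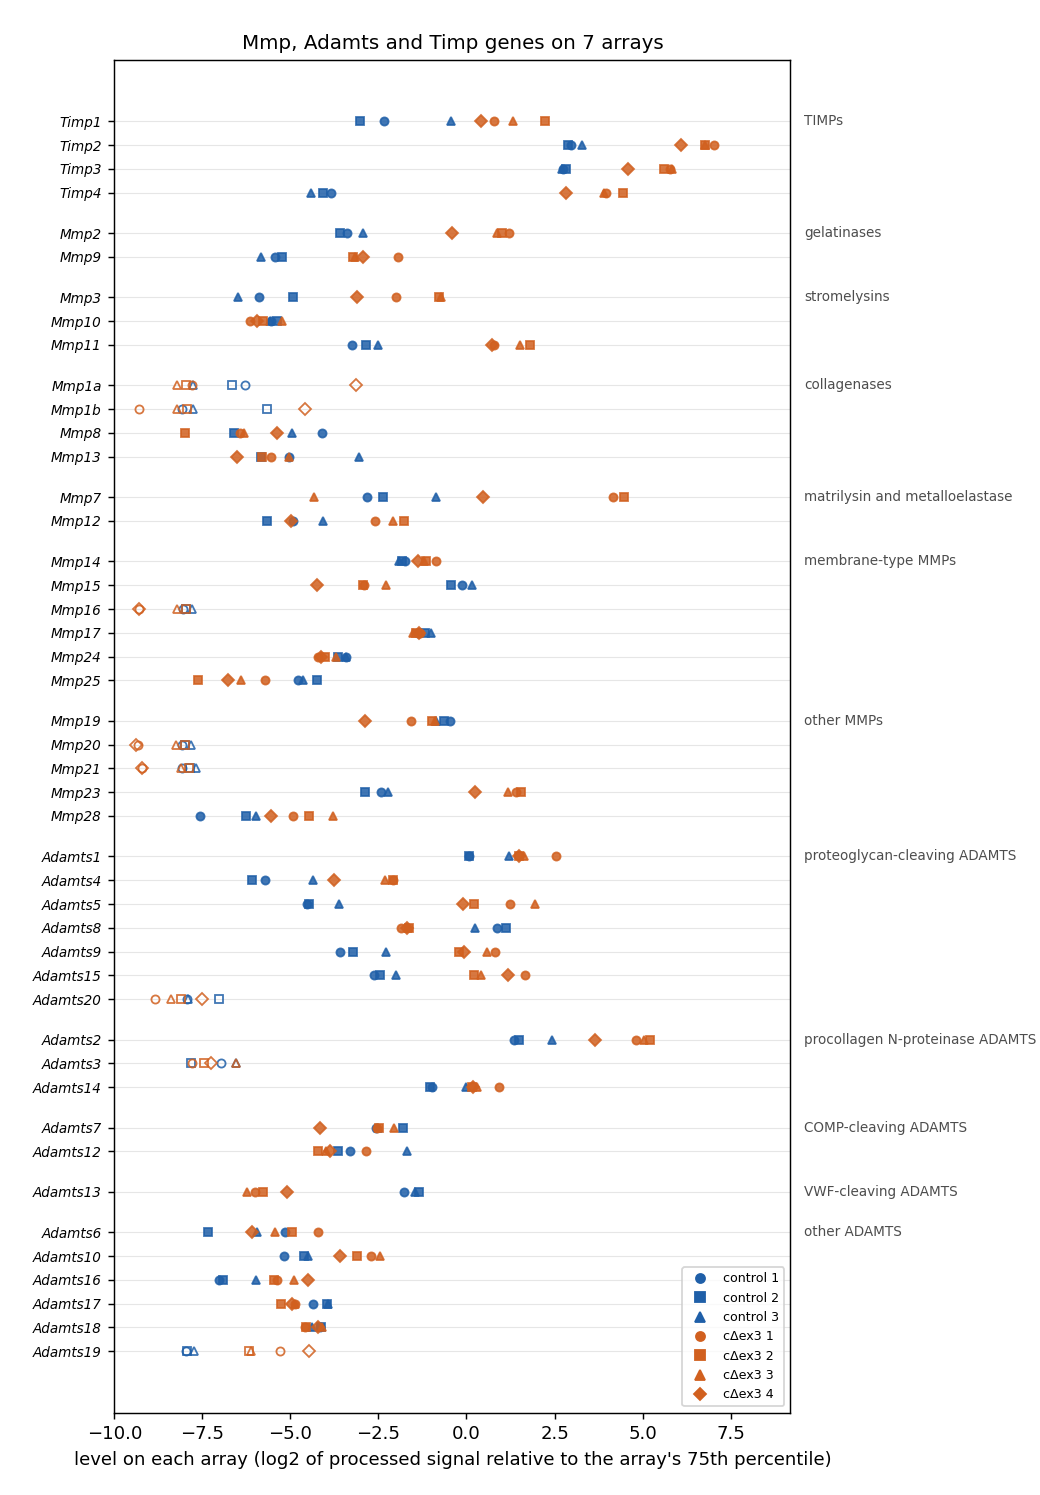
Level of each Mmp, Adamts and Timp gene on each of the 7 arrays (log2 of processed signal relative to the array's 75th percentile; brightest tested probe; open symbols mark genes not tested), grouped by role. The 4 Timp genes, both gelatinases and most proteoglycan-cleaving ADAMTS genes have every cΔex3-labelled array to the right of every control-labelled one; levels compare arrays, not genes, because probes differ in brightness.

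The inhibitors are described first, since all 4 were higher on the cΔex3-labelled arrays. To show what stands upstream of the pair with the smallest p-values, the 250 bases before the start of Timp2 and of Timp4 are given from RefSeq on GRCm38.p6, 5′ to 3′ on the strand of the gene, with GC boxes (GGGCGG on either strand) in capitals. The Timp2 window lies at chr11:118355412-118355661 on the minus strand, and the Timp4 window at chr6:115252206-115252455 on the minus strand.
Timp2: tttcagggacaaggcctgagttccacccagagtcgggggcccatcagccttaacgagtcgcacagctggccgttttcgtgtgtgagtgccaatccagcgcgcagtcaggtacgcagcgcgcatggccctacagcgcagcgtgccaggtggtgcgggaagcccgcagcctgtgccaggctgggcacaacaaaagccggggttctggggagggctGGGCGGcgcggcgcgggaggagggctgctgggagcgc
Timp4: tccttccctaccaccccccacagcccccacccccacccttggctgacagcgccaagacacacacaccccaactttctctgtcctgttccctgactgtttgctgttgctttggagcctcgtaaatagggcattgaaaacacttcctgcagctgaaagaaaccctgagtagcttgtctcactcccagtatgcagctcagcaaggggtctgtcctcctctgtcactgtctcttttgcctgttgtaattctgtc
The Timp2 window held 1 GC box and the Timp4 window none. Neither held a TATA box, spelled TATAAA and read on the strand of the gene. An AP-1 site, spelled TGANTCA on either strand with N for any base, was in neither window. The same was true of the TCF/LEF site through which β-catenin acts, spelled ATCAAAG on either strand. The 4 motifs were searched independently and may overlap.

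Timp4, the inhibitor best known from heart and fat, had the largest difference of all 37 genes. Control-labelled arrays had levels of -3.84, -4.08 and -4.41, and cΔex3-labelled arrays 3.97, 4.45, 3.91 and 2.82. The groups lay far apart, and in linear processed signal the control-labelled arrays read 42.6 to 53.4 and the cΔex3-labelled arrays 15286.4 to 29389.6. The difference was 7.90 ± 0.38 (SE; limma adjusted p = 1.43e-05; n = 3 and 4 arrays), or 238-fold. The adipocyte marker list had medians of 1.00, 1.07 and 2.73 against 7.47, 7.68, 7.94 and 6.41. Of the cΔex3-labelled arrays, replicate 4 was lowest for the list and for Timp4, as for 50.8% of all genes called higher. Of the control-labelled arrays, replicate 3 was highest for the list but lowest for Timp4. The part of fat cells in the Timp4 difference was not tested.

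Timp2, which inhibits most MMPs and also takes part in the activation of proMMP2 at the cell surface, was at 2.96, 2.89 and 3.29 against 7.03, 6.78, 6.78 and 6.08. These 7 values fell into 2 tight groups, and the difference was 3.62 ± 0.26 (limma adjusted p = 6.77e-05). A separate Timp2 probe gave 3.66, so that the gene's 2 probes differed by 0.04. Timp3, which stays bound to the matrix and also blocks ADAM and ADAMTS enzymes, was at 2.73, 2.83 and 2.71 against 5.77, 5.60, 5.85 and 4.60, with the control-labelled arrays close together and cΔex3 replicate 4 below its group. The Timp3 difference was 2.70 ± 0.32 (limma adjusted p = 0.000583).

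Timp1, an inducible inhibitor of inflamed and healing tissue, was the most variable of the 4. It was at -2.33, -3.03 and -0.43 against 0.78, 2.24, 1.31 and 0.41. Control replicate 3 came close to the lowest cΔex3-labelled array, and the difference of 3.11 ± 0.68 had the largest adjusted p of the family (0.0076, limma).

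In the mouse genome, 3 of the 4 Timp genes lie within synapsin genes, which encode proteins of synaptic vesicles: Timp1 within Syn1, Timp3 within Syn3 and Timp4 within Syn2, whereas Timp2 lies in none. The synapsin host moved with its Timp gene in 1 of these 3 pairs. Syn2 was at -3.67, -4.07 and -3.43 against 0.70, 1.84, 1.70 and 2.32, a difference of 5.36 ± 0.38 (limma adjusted p = 6.58e-05) without overlap. On the cΔex3-labelled arrays Syn2 was highest on replicate 4, the array where Timp4 was lowest. Syn3 was lower, with a difference of -0.90 (limma adjusted p = 0.00794), while Timp3 was higher, and Syn1 differed by -0.74 (limma adjusted p = 0.245).

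**Figure D2:**
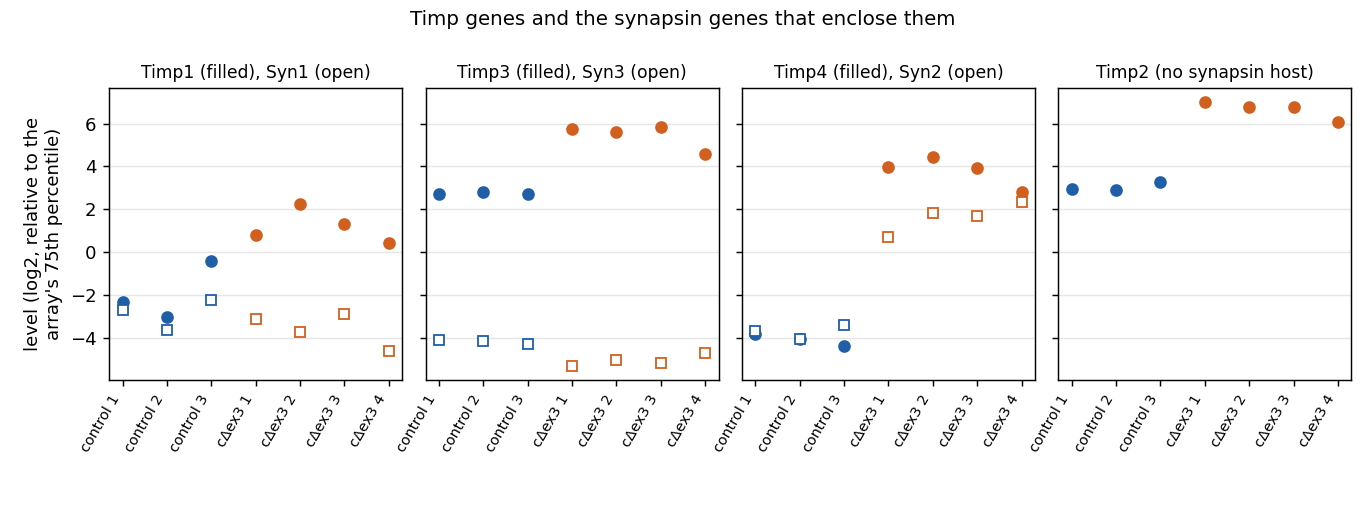
Levels (log2, relative to the array's 75th percentile) of the 4 Timp genes (filled) and of the synapsin gene that encloses 3 of them (open) on the 7 arrays, control-labelled in blue and cΔex3-labelled in orange. Timp4 and Syn2 are both higher on all 4 cΔex3-labelled arrays, whereas Syn1 and Syn3 stay near or below their control-labelled levels.

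Both gelatinases, the MMPs that cut denatured collagen and basement membrane collagen, were higher on the cΔex3-labelled arrays. Mmp2, the gelatinase of mesenchymal cells, was at -3.39, -3.58 and -2.95 against 1.21, 1.02, 0.87 and -0.40. The groups were separated by more than their spread, with cΔex3 replicate 4 lowest of its group, and differed by 3.99 ± 0.41 (limma adjusted p = 0.000296). Mmp9, the gelatinase best known from leukocytes and keratinocytes, was at -5.43, -5.25 and -5.83 against -1.94, -3.21, -3.18 and -2.95. Mmp9 was well above background on only 2 of 3 control-labelled arrays, and its difference was 2.68 ± 0.35 (limma adjusted p = 0.000848). Of 9 neutrophil markers, limma called 0 higher (0 at an unadjusted p under 0.05) and 2 lower on the cΔex3-labelled arrays, with a summed linear level of 13.7 to 25.7 on control-labelled and 8.17 to 16.2 on cΔex3-labelled arrays.

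Of the stromelysins, 2 of 3 were higher. Mmp11, which is processed inside the cell by furin and is typical of stromal fibroblasts, was at -3.26, -2.86 and -2.52 against 0.77, 1.79, 1.51 and 0.72, and differed by 4.08 ± 0.33 (limma adjusted p = 0.000114). The groups did not overlap, and a separate probe of the gene gave 4.29. Mmp3, which cuts proteoglycans and laminin and can activate other proMMPs, was at -5.90, -4.93 and -6.50 against -2.00, -0.78, -0.73 and -3.12. Its difference was 4.12 ± 0.66 (limma adjusted p = 0.00206), but only 1 of 3 control-labelled arrays was well above background, so that the low side of the difference is poorly measured. Mmp10, a stromelysin of epithelial wound edges, differed by -0.28 and did not pass (limma adjusted p = 0.369).

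Of 3 other MMPs tested, 2 were higher. Mmp23, an unusual MMP anchored through its N-terminal part, was at -2.44, -2.88 and -2.22 against 1.40, 1.54, 1.17 and 0.25, without overlap and with a difference of 3.60 ± 0.35 (limma adjusted p = 0.000226). Mmp28, known as epilysin from keratinocytes, was not well above background on any control-labelled array, where it read -7.58, -6.26 and -5.97, and was at -4.92, -4.46, -3.79 and -5.54 on the cΔex3-labelled arrays. Its level there was at least 2.03-fold higher, a bound against the lowest signals well above background (limma adjusted p of the fitted difference 0.0178), and a second probe, at -8.06, -7.85 and -7.72 against -4.91, -5.07, -4.46 and -6.62, gave at least 1.35-fold (limma adjusted p 0.00396). The Mmp28 call was lost without control replicate 1 (fitted difference 1.44, limma adjusted p = 0.0573). Mmp19 differed by -0.91 and did not pass (limma adjusted p = 0.148), although all 4 cΔex3-labelled arrays lay below all 3 control-labelled arrays.

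Of the 2 collagenases tested, enzymes that start the breakdown of fibrillar collagen, limma called 0, with 0 at an unadjusted p under 0.05. Mmp13, the main interstitial collagenase of the mouse, differed by -1.09 (limma adjusted p = 0.206), and Mmp8, the neutrophil collagenase, by -1.32 (limma adjusted p = 0.179). Mmp1a and Mmp1b were well above background on 1 array only, cΔex3 replicate 4, at -3.14 and -4.59, and were not tested.

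Mmp7 and Mmp12 had single cΔex3-labelled arrays that decided the call. Mmp7, matrilysin, a protease of glandular epithelia, was at -2.82, -2.37 and -0.86 against 4.17, 4.48, -4.32 and 0.48. Replicates 1 and 2 of the cΔex3-labelled arrays lay above every control-labelled array by a wide margin and replicate 3 below every one, which gave an SD of 4.11 and a difference of 3.22 ± 2.05 that did not pass (limma adjusted p = 0.227). Without cΔex3 replicate 3 the difference was 5.06 (limma adjusted p = 0.0118). Mmp12, the macrophage metalloelastase, was at -4.92, -5.66 and -4.07 against -2.60, -1.78, -2.10 and -4.99, so that replicates 1 to 3 of the cΔex3-labelled arrays lay above and replicate 4 within the control-labelled range. Its difference was 2.01 ± 0.79 (limma adjusted p = 0.0684), and 2.72 without cΔex3 replicate 4 (limma adjusted p = 0.00215). A second Mmp12 probe, not tested, was well above background on 2 cΔex3-labelled arrays and on no control-labelled one. Of 10 macrophage and Kupffer cell markers, limma called 0 higher (0 at an unadjusted p under 0.05) and 4 lower on the cΔex3-labelled arrays. The 4 lower were Clec4f, Vsig4, Cd5l and Marco. The 6 not called were Cd68, Csf1r, Adgre1, C1qa, C1qb and C1qc, with differences from -0.23 to 0.80.

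Of the 6 membrane-type MMPs, 5 were tested, and they did not move together. Mmp14, the main pericellular collagenase and activator of proMMP2, was at -1.74, -1.83 and -1.91 against -0.86, -1.15, -1.22 and -1.37. These groups did not overlap, but the difference was small at 0.68 ± 0.18 (limma adjusted p = 0.0176), and the call was lost without control replicate 2 (0.68, limma adjusted p = 0.0576) or control replicate 3 (0.64, limma adjusted p = 0.0565). Mmp15, a close relative of Mmp14, went the other way, at -0.14, -0.43 and 0.17 against -2.90, -2.93, -2.28 and -4.25, a difference of -2.95 ± 0.45 (limma adjusted p = 0.00166) with no overlap. Mmp25, a lipid-anchored MMP known from leukocytes, was at -4.79, -4.25 and -4.63 against -5.72, -7.63, -6.41 and -6.76, with 2 of 4 cΔex3-labelled arrays well above background and a difference of -2.08 ± 0.43 (limma adjusted p = 0.00613). Mmp17 and Mmp24 differed by -0.21 and -0.52 and did not pass (limma adjusted p = 0.331 and 0.0512). A second Mmp24 probe was at -6.03, -5.80 and -6.15 against -5.62, -5.95, -5.80 and -6.35, with overlap and a difference of 0.06 (limma adjusted p = 0.828). Mmp16 was not well above background on any array.

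The calls were uneven along the Mmp cluster of chromosome 9, where the protein-coding neighbours run Mmp13, Mmp12, Mmp1b, Mmp3, Mmp1a, Mmp10, Mmp8, Mmp27, Mmp20 and Mmp7. Mmp3 was called, and Mmp13, Mmp12, Mmp10, Mmp8 and Mmp7 were tested without a call, while Mmp1b, Mmp1a and Mmp20 were not tested. The windows before Mmp3, Mmp13 and Mmp7 are shown to set the called gene beside its neighbours, together with Mmp11, a called gene elsewhere. They lie at chr9:7445572-7445821 on the plus strand, chr9:7272264-7272513 on the plus strand, chr9:7691840-7692089 on the plus strand (the first of 2 starts listed) and chr10:75932503-75932752 on the minus strand in GRCm38.p6; capitals mark the AP-1 sites, TATA boxes and GC boxes defined above.
Mmp3: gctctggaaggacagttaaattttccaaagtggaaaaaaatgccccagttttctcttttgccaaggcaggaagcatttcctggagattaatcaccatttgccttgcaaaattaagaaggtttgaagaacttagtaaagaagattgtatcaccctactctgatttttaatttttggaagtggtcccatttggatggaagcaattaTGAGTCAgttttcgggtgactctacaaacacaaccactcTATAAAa
Mmp13: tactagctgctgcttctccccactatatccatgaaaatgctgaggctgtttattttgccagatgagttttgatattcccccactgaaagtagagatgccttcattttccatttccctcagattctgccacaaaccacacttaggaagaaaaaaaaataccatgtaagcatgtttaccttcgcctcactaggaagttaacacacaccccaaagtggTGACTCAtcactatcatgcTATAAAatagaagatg
Mmp7: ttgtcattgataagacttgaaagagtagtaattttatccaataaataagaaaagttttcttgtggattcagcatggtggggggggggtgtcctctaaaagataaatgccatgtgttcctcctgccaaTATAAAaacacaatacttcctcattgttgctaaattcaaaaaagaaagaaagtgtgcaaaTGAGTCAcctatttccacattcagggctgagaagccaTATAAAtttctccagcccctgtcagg
Mmp11: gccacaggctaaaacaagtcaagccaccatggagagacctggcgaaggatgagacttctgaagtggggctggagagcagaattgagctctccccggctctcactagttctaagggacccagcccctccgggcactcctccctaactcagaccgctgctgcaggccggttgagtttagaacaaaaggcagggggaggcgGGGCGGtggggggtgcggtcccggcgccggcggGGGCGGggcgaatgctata
The called Mmp3 and its uncalled neighbours Mmp13 and Mmp7 each held an AP-1 site and at least 1 TATA box, whereas the Mmp11 window held neither and had 2 GC boxes. A RefSeq window was found for 31 of the 45 genes. A gene was counted if any of its windows held the motif, whereas the share over all windows is per window. Genes with several starts thus had more chances of a match. An AP-1 site stood in 8 of these 31 and in 6.75% of all 32851 windows, and the 8 were Mmp3, Mmp7, Mmp10, Mmp12, Mmp13, Mmp1a, Mmp1b and Mmp20, all of the chromosome 9 cluster. Of the 13 genes with a window that were called higher, 1 held an AP-1 site, 10 a GC box (16 of the 31 genes and 32.7% of all windows), 2 a TATA box (9 of 31 and 7.59% of all) and 0 a TCF/LEF site (1 of 31, in the window of the other Mmp7 start, and 3.21% of all). A match of letters is a description of the window and was not tested as a binding site.

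**Figure D3:**
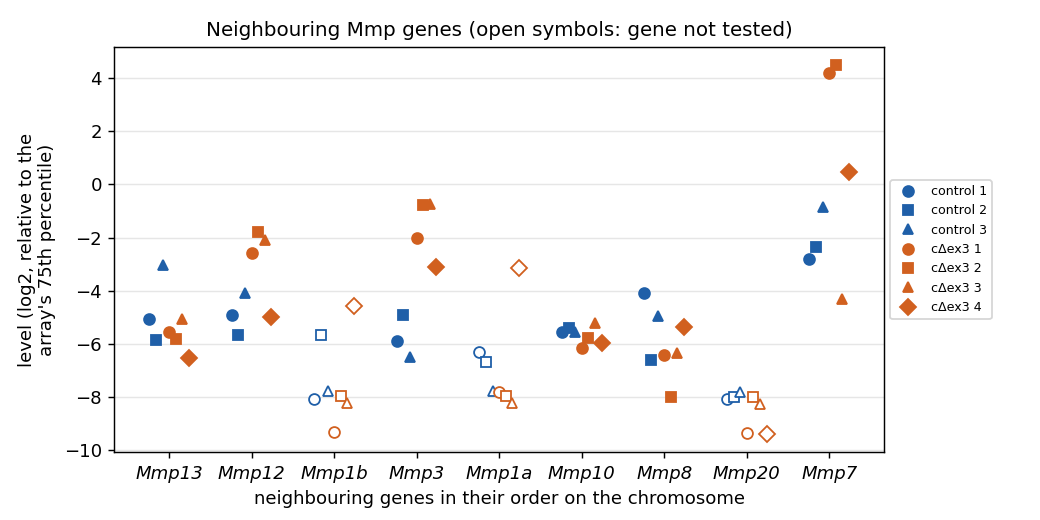
Levels (log2, relative to the array's 75th percentile) of 9 neighbouring Mmp genes in chromosome order on the 7 arrays, with open symbols for genes not tested. The arrays separate by group for Mmp3, while Mmp7 spans from -4.32 to 4.48 within the cΔex3-labelled group.

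The ADAMTS proteases that cut aggrecan, versican and related proteoglycans held 5 higher genes and 1 lower gene among 6 tested. The lower gene was Adamts8, whose other tested probe was called higher, as given below. Adamts5, the main aggrecanase of mouse cartilage, was at -4.52, -4.47 and -3.61 against 1.24, 0.21, 1.96 and -0.10. The groups were wide apart, the difference was 5.03 ± 0.53 (limma adjusted p = 0.000335), and another probe gave 4.96. Adamts9, which cuts versican, was at -3.58, -3.22 and -2.29 against 0.80, -0.20, 0.58 and -0.07, a difference of 3.31 ± 0.38 (limma adjusted p = 0.00054) without overlap.

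Adamts15, another versican-cutting protease, was at -2.62, -2.46 and -2.01 against 1.67, 0.22, 0.40 and 1.19, with a difference of 3.23 ± 0.38 (limma adjusted p = 0.000587). Adamts4, the inducible aggrecanase, was at -5.72, -6.09 and -4.36 against -2.10, -2.10, -2.31 and -3.75, a difference of 2.82 ± 0.55 (limma adjusted p = 0.00486) with 1 of 3 control-labelled arrays well above background. The groups did not overlap for either gene. Adamts1, a versican-cutting protease needed for ovulation in mice, was at 0.07, 0.08 and 1.20 against 2.54, 1.50, 1.64 and 1.48. Control replicate 3 came close to the lowest cΔex3-labelled array, and the difference of 1.34 ± 0.39 (limma adjusted p = 0.0231) was no longer called without control replicate 1 (1.15, limma adjusted p = 0.0857) or 2 (1.16, limma adjusted p = 0.0856). Adamts1 and Adamts5 are direct coding neighbours in the genome, as are Adamts8 and Adamts15, and Adamts20 was not well above background on any array.

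**Figure D4:**
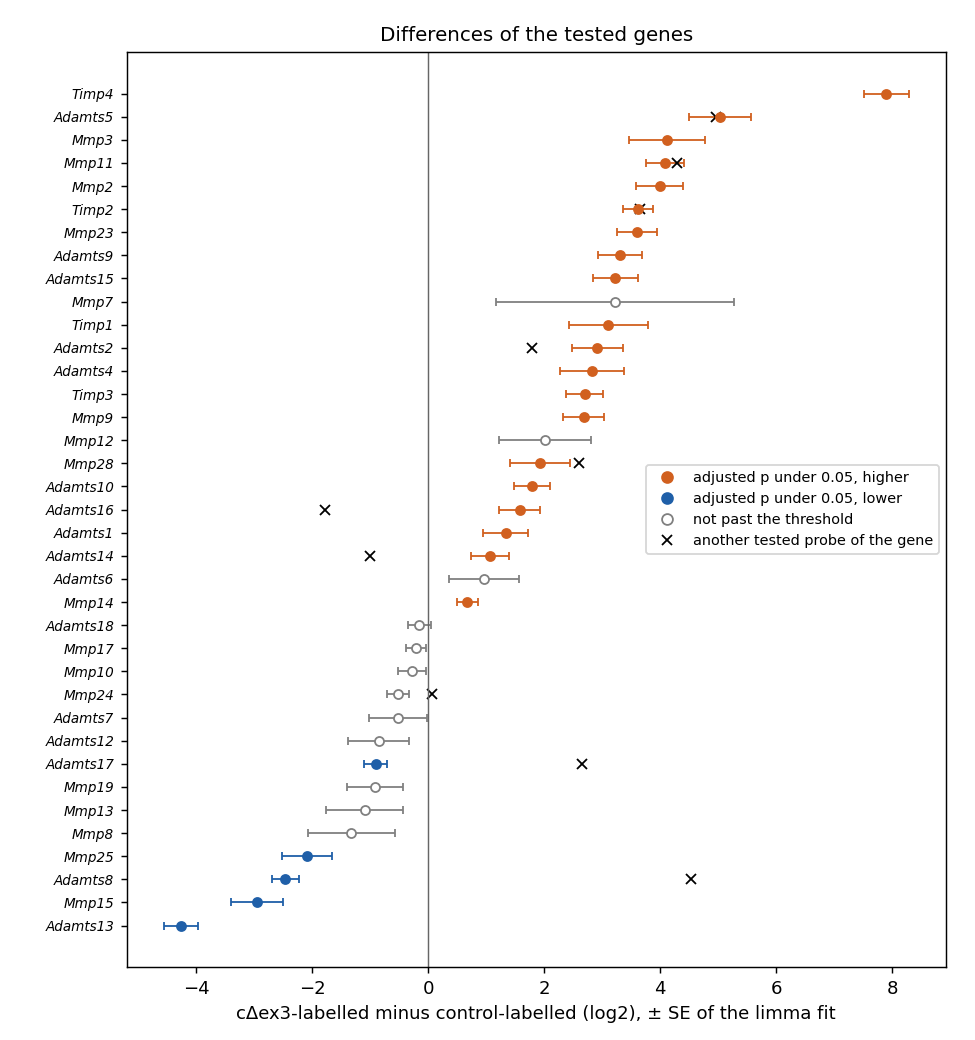
Difference between the cΔex3-labelled and control-labelled arrays (log2) for the 37 tested genes, with the SE of the limma fit; crosses show a gene's other tested probe. Timp4 stands highest at 7.90 and Adamts13 lowest at -4.26, and the second probes of Adamts8, Adamts14, Adamts16, Adamts17 and Mmp24 fall on the other side of 0 from the first.

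The procollagen N-proteinases, which trim fibrillar procollagens, were represented by Adamts2 and Adamts14, both called higher by the brighter probe. The dimmer Adamts14 probe was called lower, as given below. Adamts3 was not well above background on any array. Adamts2, whose loss causes fragile skin, was at 1.35, 1.50 and 2.44 against 4.81, 5.22, 5.04 and 3.66, a difference of 2.92 ± 0.44 (limma adjusted p = 0.00166). A second probe, at -4.73, -4.83 and -4.99 against -2.74, -2.58, -3.03 and -3.85, gave a smaller difference of 1.80 ± 0.32 (limma adjusted p = 0.00315), again without overlap. The brighter Adamts14 probe was at -0.97, -1.05 and 0.00 against 0.92, 0.17, 0.30 and 0.19. Its difference of 1.07 ± 0.33 (limma adjusted p = 0.0289) was lost on leaving out control replicate 1 (0.92), control replicate 2 (0.88), cΔex3 replicate 1 (0.89) or cΔex3 replicate 3 (limma adjusted p = 0.0505).

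Adamts13, the protease that cuts von Willebrand factor and is made mainly by hepatic stellate cells, had the lowest difference of all 37 genes. It was at -1.78, -1.35 and -1.46 against -6.02, -5.79, -6.24 and -5.11, with 2 of 4 cΔex3-labelled arrays well above background. The groups lay far apart, with a difference of -4.26 ± 0.29 (limma adjusted p = 5.37e-05). A second Adamts13 probe was not well above background on any array and was not tested. Of 10 hepatic stellate cell markers, 6 were lower and 2 higher on the cΔex3-labelled arrays, with a median difference of -1.77 and a summed linear level of 71.9 to 90.2 on control-labelled against 40.4 to 56.6 on cΔex3-labelled arrays. The part of stellate cells in the Adamts13 difference was not tested. Vwf, the substrate, which endothelial cells make, was higher by 2.94 ± 0.32 (limma adjusted p = 0.000413).

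Among the other ADAMTS genes, Adamts10, a fibrillin-binding family member, was at -5.17, -4.62 and -4.51 against -2.71, -3.10, -2.47 and -3.59, with no overlap and a difference of 1.80 ± 0.31 (limma adjusted p = 0.00303). Adamts6 and Adamts18 differed by 0.97 and -0.15 and did not pass (limma adjusted p = 0.217 and 0.563). Adamts7 and Adamts12, which cut cartilage oligomeric matrix protein, differed by -0.52 and -0.85 and did not pass either (limma adjusted p = 0.421 and 0.215). A second Adamts12 probe, not tested, was at -8.09, -7.91 and -7.71 against -3.87, -6.85, -5.87 and -5.97, well above background on 2 cΔex3-labelled arrays and on no control-labelled one, and at least 1.04-fold higher. Adamts19 was at -7.96, -7.95 and -7.75 against -5.30, -6.18, -6.11 and -4.48, well above background on 2 cΔex3-labelled arrays and on no control-labelled one, and at least 1.13-fold higher, without a test.

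For 4 Adamts genes the called direction depended on the probe. Adamts8, known for blocking vessel growth, was at 0.88, 1.11 and 0.25 against -1.86, -1.64, -1.65 and -1.68 on its brighter probe, a difference of -2.46 ± 0.23 (limma adjusted p = 0.000222). Its dimmer probe was at -5.07, -7.15 and -7.70 against -1.72, -2.10, -2.29 and -2.29, a difference of 4.54 ± 0.59 (limma adjusted p = 0.000845). Each probe separated the groups without overlap, but in opposite directions, and the dimmer probe was well above background on 1 of 3 control-labelled arrays. Adamts14 gave 1.07 on its brighter probe, as above, and on its dimmer probe was at -3.69, -3.42 and -3.63 against -4.80, -4.05, -4.73 and -4.73, a difference of -1.0 ± 0.23 (limma adjusted p = 0.0102).

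The brighter Adamts16 probe was at -7.02, -6.91 and -5.99 against -5.39, -5.46, -4.90 and -4.49, not well above background on any control-labelled array and at least 1.55-fold higher on the cΔex3-labelled ones (limma adjusted p of the fitted difference 0.00807). The dimmer Adamts16 probe was at -5.26, -5.78 and -5.66 against -6.89, -8.09, -7.72 and -6.68, a difference of -1.78 ± 0.37 (limma adjusted p = 0.0066). Adamts16 is a less studied family member. It is counted among the higher genes by its brighter probe only, and its direction is not settled. For Adamts17, known in humans from a Weill-Marchesani-like syndrome, the brighter probe was at -4.37, -3.97 and -3.94 against -4.88, -5.28, -4.86 and -4.95, a difference of -0.90 ± 0.20 (limma adjusted p = 0.00788). Its dimmer probe was at -8.00, -7.89 and -7.75 against -6.10, -5.30, -4.58 and -4.95, at least 1.38-fold higher (limma adjusted p of the fitted difference 0.000967). Such opposite calls were found in 4 of the 10 genes here with several tested probes and in 181 of all 4752 such genes (3.81%). In Adamts16 and Adamts17 they rest on a probe tested through the cΔex3-labelled arrays alone. The dimmer Adamts8 probe was tested only with the cΔex3-labelled arrays counted, and the dimmer Adamts16 probe only with the control-labelled arrays counted. Only in Adamts14 were both probes well above background on every array. Probes had opposite signs in 5 of the 10 genes, Mmp24 included, and in 24.6% of all such genes. Without these 4 genes, 18 were higher with no conflicting tested probe and 3 were lower, namely Adamts13, Mmp15 and Mmp25. Of these, Mmp3, Mmp9, Mmp28, Adamts4, Adamts13 and Mmp25 entered testing only with the group counted where they were higher.

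**Figure D5:**
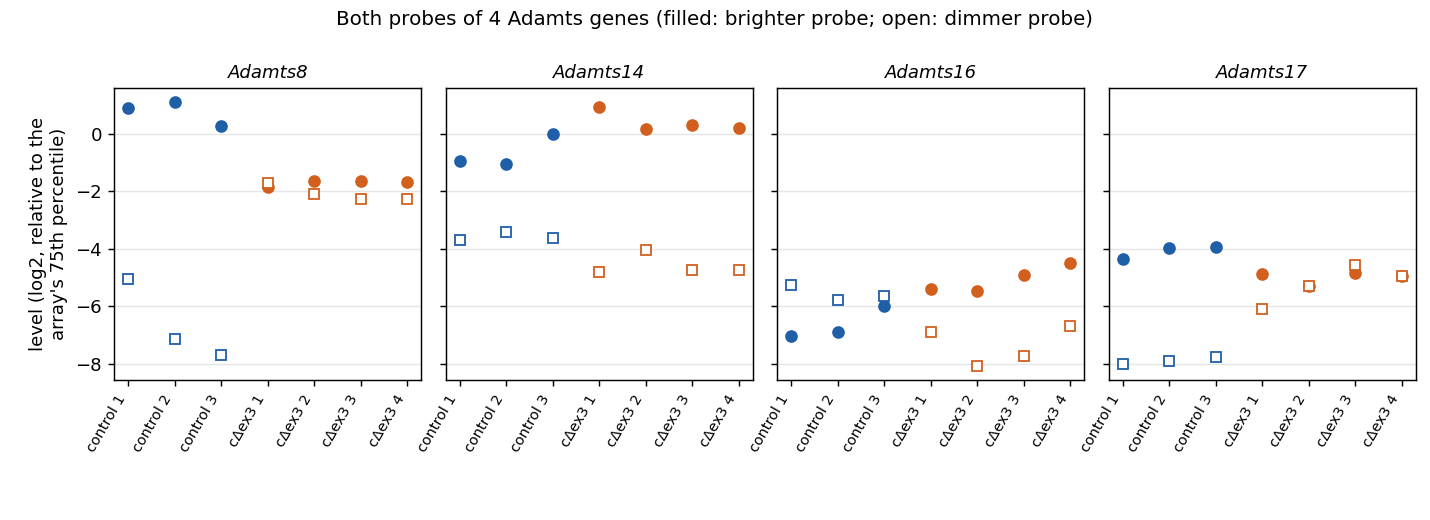
Levels (log2, relative to the array's 75th percentile) on both tested probes of Adamts8, Adamts14, Adamts16 and Adamts17 on the 7 arrays, with the brighter probe over all arrays filled and the dimmer one open. In each gene the filled and open points move in opposite directions between the control-labelled (blue) and cΔex3-labelled (orange) arrays.

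The extremes within each group fell on the same arrays for most higher genes. Of the 20 higher genes, cΔex3 replicate 4 was the lowest cΔex3-labelled array in 15 (75%), against 50.8% of all genes called higher. Control replicate 3 was the highest control-labelled array in 15 of 20 (75%), against 55.8%. The fibroblast marker list had medians of 0.67, 0.60 and 2.16 against 3.59, 3.78, 3.75 and 2.37, so that the same pair of arrays stood out, as they did for the adipocyte list. The part of fibroblast or fat cell content in the differences was not tested.

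Genes that act beside these proteases were read as lists. Their counts, like those of the marker lists, are to be read against 23.9% of all tested genes called higher and 28.8% lower. Of 10 collagen, elastin and fibronectin genes, 8 were higher and 1 lower, with a median difference of 3.38: Col1a1, the main collagen chain of dermis, was higher by 4.04 ± 0.42 (limma adjusted p = 0.000311), Col1a2 by 3.72, Col5a1 by 3.63 and Col5a2 by 3.61. Of 4 tested procollagen C-proteinases and enhancers, 2 were higher and 2 lower, with Bmp1, the C-proteinase itself, at -1.91 ± 0.25 (limma adjusted p = 0.00082), Tll1 at -1.04, and the enhancers Pcolce and Pcolce2 at 2.17 and 2.07. Of 9 tested ADAMTS substrates other than collagen, 4 were higher and 2 lower with a median of 0.03, among them Acan at -1.67 (limma adjusted p = 0.00549), Vcan at -0.96 (limma adjusted p = 0.00466) and Dcn at 0.82 (limma adjusted p = 0.0144).

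The plasminogen system, which activates several proMMPs, split by gene. Of its 9 genes, 5 were higher and 3 lower, with a median of 2.79. Plat and Plau, the tissue and urokinase activators, were higher by 5.81 ± 0.46 and 4.28 ± 0.32 (limma adjusted p = 9.64e-05 and 7.33e-05), whereas Plg, plasminogen itself, made in liver, was at 7.48, 7.89 and 7.11 against -4.92, -1.68, -2.32 and -1.34, a difference of -10.06 ± 0.82 (limma adjusted p = 0.000112). Klkb1, the plasma prekallikrein of liver, differed by -7.77. The α-macroglobulin inhibitors, plasma proteins that trap proteases, held 3 lower genes of 4 tested with a median of -9.12, Mug1 at -9.86, Mug2 at -9.74 and Pzp at -8.50, and 1 higher, the membrane-bound Cd109, at least 25.9-fold. These lower genes moved with the hepatocyte markers, whose median difference was -8.30, and the part of hepatocyte RNA in them was not tested.

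Of 10 genes of MMP activation and surface control, 5 were higher and 2 lower with a median of 0.18. Furin, which activates Mmp11 and the membrane-type MMPs, was lower, with a difference of -1.80 ± 0.19 (limma adjusted p = 0.00031). Thbs1 and Thbs2, matrix proteins that bind MMPs for uptake, were higher by 4.75 and 5.90, and Reck, a membrane-anchored MMP inhibitor, was higher by 1.49 (limma adjusted p = 0.00471). ADAM proteases held 4 higher and 0 lower of 8 tested in limma (1 lower at an unadjusted p under 0.05; median 0.90), led by Adam15 at 4.26 and Adam8 at 4.16, then Adam19 at 2.11 and Adam33 at 1.35. ADAMTS-like proteins, which lack the protease domain, held 4 higher and 0 lower of 7 (0 lower at an unadjusted p under 0.05 in limma; median 0.97), namely Adamtsl1 at 3.87, Adamtsl5 at 2.42, Thsd4 at 1.69 and Adamtsl4 at 0.97. Of 7 cathepsin and cystatin genes 2 were higher and 0 lower (0 lower at an unadjusted p under 0.05 in limma; median -0.14): Ctsk, the collagen-degrading cathepsin K, by 3.59 (limma adjusted p = 0.000356), and Cst3, the cathepsin inhibitor cystatin C, by 1.22 (limma adjusted p = 0.0162).

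By the file headers, slide row 1 held control replicates 1 and 2 and cΔex3 replicate 1, and row 2 held control replicate 3 and cΔex3 replicates 2 to 4. Each row thus has 1 arm of 1 array, assumed to vary like the other arm, and directions within a row add nothing, as the groups of the called genes did not overlap over all arrays. Of the called genes, 20 of 21 with a tested value passed within row 1, and 4 of 23 within row 2 (Timp2, Timp4, Mmp9 and Mmp11). With the row as a block, 17 genes were higher and 5 lower, Adamts1, Adamts14 and Mmp28 being lost.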

How the data were processed

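RNA of 7 samples was measured on 1-colour Agilent mouse arrays. Per the file headers, the deposited intensity values come from Agilent Feature Extraction 10.7.1.1, and the processed signal is background-subtracted and spatially detrended, not normalised between arrays; raw spot and background intensity and 0 or 1 flags (other values) came from the same deposited files. The authors also deposited a series table of log2 values whose making is not given in the sources used here; column medians of 7.407 to 7.423 are nearly equal, its direction follows the arrays' own signals, and its background offset is unknown. It served as an alternative. Files were tied to samples by the deposit's record, because the slide position in the header can differ from the one in the file's name.

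Control and outlier spots were left out and spots of 1 probe averaged (55681 probes, 49 of them without a value on some array). Of these, 28026 were named through RefSeq accessions and 27655 were not. The array layout is annotated on mm9 and RefSeq on GRCm38.p6, so only promoter windows carry coordinates. From each log2 processed signal the 75th percentile of its array was subtracted. A probe was tested if well above background on at least 3 arrays (42459 probes), in 1 two-sided limma 3.58.1 fit (lmFit and eBayes in R 4.3.3), adjusted by Benjamini-Hochberg over those probes, with a threshold of 0.05. A gene is read from its brightest tested probe (18031 genes). All adjusted p-values are limma's; SE is that of the fit, and n is 3 and 4 arrays throughout. A group not well above background on any array gives only a bound: the brighter group's mean against, on each dim array, either its lowest signal well above background or the probe's signal, whichever is higher.

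Values on every array are given for all Timp genes, members past the threshold with a log2 difference of at least 2, members with a bound, called members whose probes disagree, and the lowest p of each role group; other lists give up to 4 genes by p. The members, lists and rules were chosen with earlier results of these data known. The fit was tested on simulated data with few changed probes and independent noise. The differences between these arrays were far broader, so that test does not vouch for the calls. Array number limits the precision.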

Additional observations from a re-analysis of the deposited data

Results flagged for a closer look

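Within the 4 cΔex3-labelled arrays, the gap of the highest or lowest array to the next was set against the group's range (Dixon's test) for each of the 45 genes, and 3 passed. Chance alone passes about 1 in 20 such groups. Adamts1 was highest on cΔex3 replicate 1, at 2.54, with the other arrays of the group between 1.48 and 1.64. Adamts4 was lowest on cΔex3 replicate 4, at -3.75, with the others between -2.31 and -2.10. Mmp1a, a rodent collagenase, was at -3.14 on cΔex3 replicate 4, where alone it was well above background. The cause was not tested for any of the 3.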

How the results depend on the processing

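Over 24 alternative settings, 801 of 862 gene and setting pairs kept their direction and side of the threshold, 41 lost the call, 12 gained one and 8 changed sign. In every setting that gave a value, 11 of the 37 tested genes kept both, 6 of them called (Mmp11, Timp2 and Timp4 over 24 settings, Mmp9 over 23, Adamts13 and Mmp25 over 22). Mmp9, Adamts13 and Mmp25 entered testing only with the group counted where they were higher. The uncalled Adamts18 changed sign to 0.02 with the percentile taken over probes above background on all arrays and to 0.10 within slide row 2, and the uncalled Adamts12 to 0.11 on arrays of 1 mouse only and to 0.62 within slide row 1. With the mean of a gene's probes, genes of the 3 families called lower numbered 3 and Adamts8, Adamts17 and Adamts16 changed sign to 1.04, 0.87 and -0.10, since their probes oppose each other. On arrays of 1 mouse only, Adamts16 was -1.26, read from another probe, and all genes called higher numbered 2722. Within slide row 2 (both rows were chosen after seeing the data), with 1 control-labelled array, 4 of these genes were higher and 1 lower (Adamts12), and 574 and 624 of all genes. Leaving out each array gave 17 to 21 higher and 5 to 6 lower among these genes, and 3243 to 4816 higher and 3869 to 5477 lower among all. With the replicate number as a block, 20 were higher and 6 lower (all genes 4477 and 4903). Adamts14 lost its call (1.14), and Mmp12 (2.72) and Mmp8 (-1.70) gained one. Deviations of same-numbered arrays from their group means correlated at 0, 0.017 and 0.034, which cannot exclude a pairing among so few arrays. Same-numbered arrays also shared a slide row for replicates 1 and 3. Normexp with quantile normalisation lost Adamts16 (0.31) and Mmp28 (0.54), and a floor at the lowest signal above background lost them too (0.64 and 1.02). The median of all genes moved from -0.08 to 0.13 under quantile normalisation, and the share of calls that were higher from 45.4 to 54.7%; 23 of the 37 genes lay above that median in both. Under normexp with quantile normalisation the differences of Mmp3 (2.25), Mmp9 (1.46), Adamts4 (1.48), Adamts13 (-2.40) and Mmp25 (-0.65) were smaller in size and still called.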

Other observations

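Among 18022 named genes ranked by Pearson correlation with Mmp7 over the 7 arrays, the first 6 were Eps8l3, Fermt1, Foxj1, Crabp1, Sntn and Plet1, named here after their values were seen and with no list of genes tested. Values are given for Foxj1, a regulator of motile cilia, and Sntn, a protein of cilia tips. Foxj1 was at -4.16, -4.39 and -2.39 on control-labelled arrays against 1.79, 2.23, -7.22 and -2.34. As for Mmp7, cΔex3 replicates 1 and 2 were high and replicate 3 lowest. The ranking chose genes with this order, so the likeness to Mmp7 is no separate result. A correlation of at least 0.95 with Mmp7 was reached by 57 of the ranked genes. Sntn was at -7.19, -6.64 and -6.48 against -1.14, -1.13, -8.29 and -5.56, and was not well above background on any control-labelled array.

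Markers of the epididymis, an androgen-dependent duct, ran in another order on the same arrays. Of 6 tested markers 2 were higher, and their median level was -5.51, 0.47, 3.04 and 4.20 on cΔex3 replicates 1 to 4, with Crisp1, Lcn5, Lcn9 and Rnase9 not well above background on any control-labelled array. Of the other marker lists, continuous endothelium had 7 of 7 genes higher, mast cells 3 of 5, keratinocytes 1 higher and 1 lower of 7, and sinusoidal endothelium 4 of 7 lower. These counts stand beside 23.9% of all tested genes called higher and 28.8% called lower.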
